A study of Mus musculus with 4 samples.

Results

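The transcripts of an unirradiated mouse tissue sample are described here: the array at an absorbed dose of 0 Gy in a radioiodine (131I) series of 4 Illumina mouse BeadChip arrays, with 1 array at each of 0, 0.85, 8.5 and 17 Gy. The sample carries the label thyroid, strain Balb/c and a time of 24 h. No transgene or allele is named. Per the labels' protocols, RNA came from fresh-frozen tissue and was extracted with a kit made for fatty tissue, and it was labelled with biotin. The sources used here do not state how many animals stood behind the sample, their age or sex, or whether the unirradiated animals were injected.

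Members were the probes with 1 gene symbol and a detection p-value under 0.01 on this array, and they were ordered by raw bead intensity. Of 23978 named probes, 9411 were detected, which is 39.2%. Each gene was then represented by its brightest probe, and 7252 of 16593 named genes were detected, or 43.7%. No replicate of the 0 Gy sample was analysed, so no value below has an error and nothing was tested. Doses were not compared.

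Thyroid follicular cells take up iodide through the carrier Slc5a5, couple it to thyroglobulin (Tg) and release thyroid hormone under the control of the thyrotropin receptor Tshr. Brown fat, by contrast, burns fatty acids in densely packed mitochondria and releases the energy as heat through the uncoupling protein Ucp1. White adipocytes store triglyceride and secrete hormones such as adiponectin and leptin. Muscle, parathyroid, trachea, vessels, lymphoid tissue and depots of brown and white fat all lie close to the thyroid in the neck of a mouse.

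The label was first set against its markers, most of which were undetected. Of 8 defining thyroid follicular genes with a probe, 1 was detected. The iodide carrier Slc5a5 read 87 and the hormone precursor Tg read 84. The transcription factors Pax8, Nkx2-1 and Foxe1 read 82, 90 and 85. Duox2, which makes the peroxide for iodination, read 72, and Iyd, which recovers iodide, read 89. All 7 lay below the lowest intensity of a detected probe, which was 103 on this array. They were undetected on the other arrays of the series too, and whether their probes can report these genes was not tested. Tshr was the exception, at 137 on its brighter probe and 106 on the other. Adipocytes of the mouse are also known to carry Tshr. The sample is therefore called the 0 Gy array below, and no tissue name is given to it.

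Adipocyte and brown fat markers gave the opposite picture. Of 6 defining adipocyte genes with a probe, 5 were detected: Adipoq (adiponectin) at 9339, Cidec at 4509, Lep (leptin) at 1209, Plin1 at 531 and Retn (resistin) at 111. Fabp4, the adipocyte fatty acid binding protein, read 100 with a detection p of 0.0214 and so missed the threshold. Of 8 defining brown fat genes, 6 were detected. The cytochrome oxidase subunits Cox8b and Cox7a1 read 15767 and 11783, the lipid droplet protein Cidea read 14223, and Ucp1 read 8411. Cox8b and Cox7a1 are also known from heart and skeletal muscle. Elovl3, an elongase induced in brown fat, read 642, and the coactivator Ppargc1a read 549. Dio2, which activates thyroid hormone in brown fat, read 83, and the brown fat regulator Prdm16 read 85, both undetected. Skeletal muscle stood at the other end, with 0 of 10 defining genes detected and a highest reading of 96, for the fast troponin Tnnc2.

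**Figure D1:**
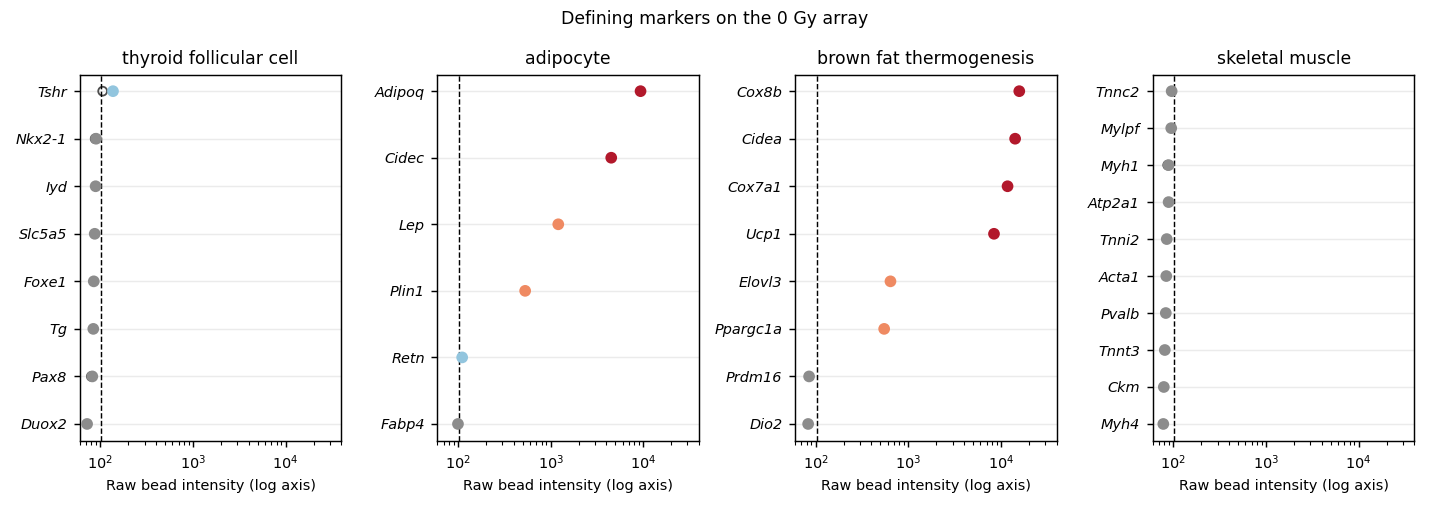
Raw bead intensity (log axis) of the defining markers of 4 lists on the 0 Gy array. Filled points are each gene's brightest probe (red bright, orange middling, blue dim, grey undetected), open circles are further probes, and the dashed line is the lowest intensity of a detected probe, 103. All 10 muscle markers and 7 of 8 thyroid markers lie left of the line, and the 4 red brown fat markers lie far to its right.

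Detected genes were divided into 3 bands by intensity. The bright band held the brightest 10% of detected genes, 725 in all and 4.37% of named genes, from 1692 to 29652 with a median of 3310. The middling band reached down to the median of the detected genes and held 2902 genes from 237 to 1690. The dim band held the remaining 3625 detected genes, from 103 to 236 with a median of 135. The 9341 undetected genes ran from 70 to 102 with a median of 87. Intensity depends on each probe's sequence as well as on its transcript, so a band gives the order of probe brightness and not the order of mRNA amounts.

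**Figure D2:**
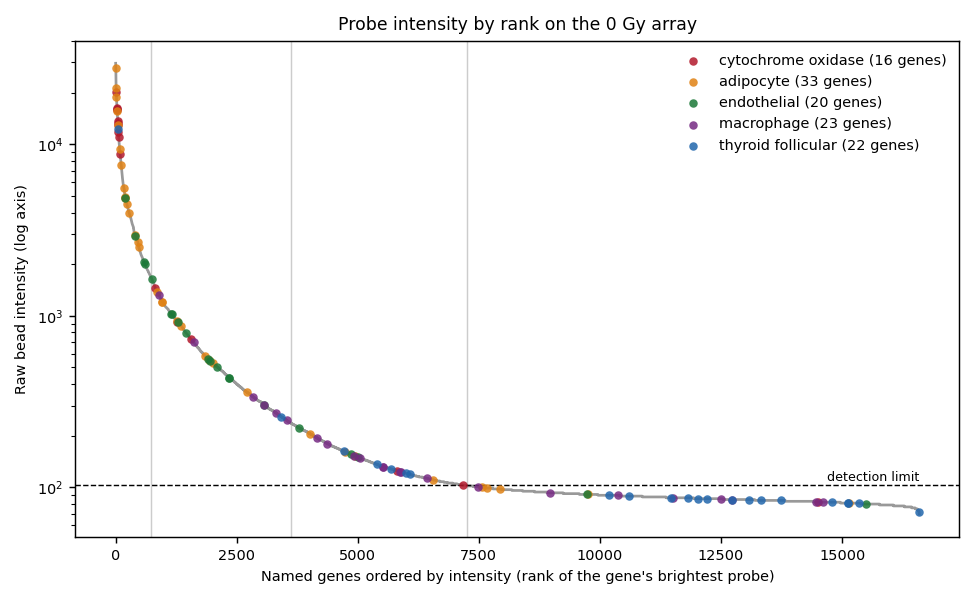
Raw bead intensity (log axis) of the 16593 named genes against their rank on the 0 Gy array, each gene shown by its brightest probe. Grey vertical lines divide the bright, middling, dim and undetected bands, the dashed line marks the lowest detected intensity of 103, and coloured points are the members of 5 lists. Cytochrome oxidase and adipocyte genes crowd the steep left end, endothelial genes lie mostly in the middling band, and 15 of 22 thyroid follicular genes lie below the line.

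An undetected probe did not show that a transcript was missing. Eef1a1, the translation elongation factor that every cell uses, read 82, and the cytoskeletal actin Actg1 read 86, both undetected. Among 158 genes in 6 lists that every cell uses (complex I, complexes II and III, ATP synthase, both ribosomes and proteasome), 11 were undetected, or 6.96%. Olfactory receptors, which serve smell in the nose, gave the opposite check: 11 of 1058 were detected, or 1.04%, the highest at 124 for Olfr108. Vomeronasal receptors had 2 of 138 detected.

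Probes of the same gene often disagreed. Of 4777 genes with several probes, 1068 had all detected, 1943 had none, and 1766 (37%) had some detected and some not. Where all were detected, the brightest probe read 2.03 times the dimmest at the median and 8.67 times at the 90th percentile. Dbi, the acyl-CoA binding protein, showed the widest gap, with the brightest probe of the array at 29652 and another of its probes at 87, undetected. The ribosomal proteins Rpl23 (22766 and 82), Rps24 (14460 and 101) and Rpl37 (11823 and 88) were also split. So were the membrane protein Itm2b (11199 and 80) and B2m, the light chain of MHC class I (10080 and 84). In all, 81 of 262 bright genes with several probes had an undetected one.

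**Figure D3:**
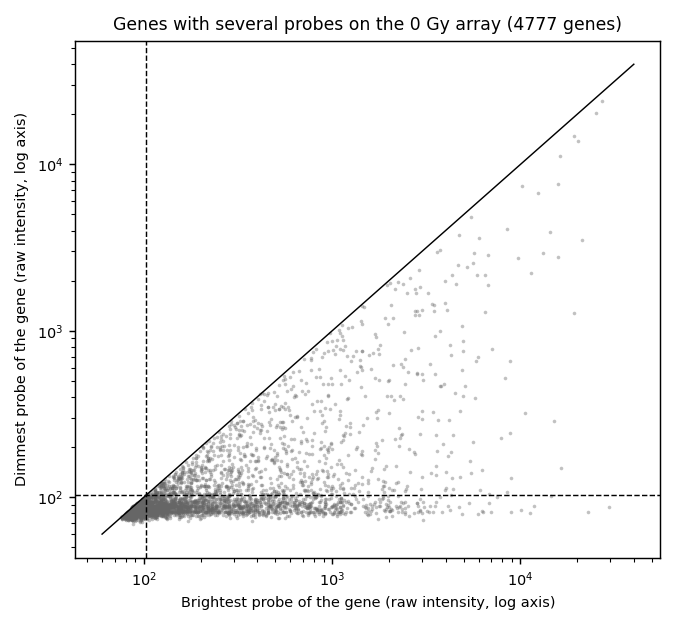
Dimmest against brightest probe (raw intensity, log axes) for the 4777 named genes with several probes on the 0 Gy array. The solid line marks equal values and the dashed lines the lowest detected intensity, 103; the 1766 genes at lower right have a detected and an undetected probe, and Dbi is the rightmost of them.

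The 40 brightest named probes belonged mainly to mitochondrial energy conversion and lipid handling. All read 14460 or above, and they came from 37 genes. Of these, 13 encode subunits of the respiratory chain or ATP synthase, 10 are in the fat and lipid lists, and 6 encode cytosolic ribosomal proteins. Cox8b is counted both among the 13 and among the 10. None of the 37 is in the thyroid follicular or skeletal muscle list. The 500 brightest probes came from 459 of the 16593 named genes, and 306 of the 459 were in no list. They included 52 of the 79 respiratory chain and ATP synthase genes, 44 fat and lipid genes and 20 of the 36 ribosomal genes. The thyroid follicular list gave 1 of its 22 genes and the skeletal muscle list 1 of its 31.

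ATP synthase, the enzyme that makes ATP from the proton gradient, supplied 3 of these probes. Its catalytic beta subunit Atp5b read 29063, the membrane subunit Atp5j2 read 24235, and Atp5g3, a subunit of the rotating c ring, read 17569. Complex III, which passes electrons to cytochrome c, was represented by Uqcr10 at 27030 and 23887 on its 2 probes and by Uqcr11 at 15108. From complex IV, cytochrome oxidase, came Cox6b1 (20124), Cox6a1 (16280), Cox5b (15985) and Cox8b (15767). Complex I, which oxidises NADH, contributed Ndufb8 (19781), Ndufa4 (17952, a protein later assigned to complex IV), Ndufa13 (15430) and Ndufs6 (15403). Complexes I, III and IV and ATP synthase thus all had probes among the 40.

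Lipid enzymes came next. Acly, which makes cytosolic acetyl-CoA from citrate, read 28685, and Acaca, which carries out the first committed step of fatty acid synthesis, read 16203. The desaturase Scd1 read 18792 and Dgat2, which closes triglyceride synthesis, read 18982. On the breakdown side, Lpl, which frees fatty acids from circulating lipoproteins, read 27689, and Pnpla2, the lipase that starts lipolysis inside the cell, read 21233. Fatty acid oxidation was represented by the dehydrogenase Acadm at 21336 and the electron carrier Etfa at 15779. Acsl5, which activates long-chain fatty acids, read 21307. Enzymes of synthesis, release and oxidation of fatty acids thus stood together at the top.

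The rest of the 40 were mixed. The ribosomal proteins Rpl23, Rpl41 (21740), Rplp1 (16904), Rps20 (16647), Rpl38 (15035) and Rps24 were joined by the glycolytic enzyme Gapdh (15882) and by Suclg1 (16499) of the tricarboxylic acid cycle. Car3, a carbonic anhydrase abundant in fat, read 15611. The iron store Fth1 read 25282 and 20430, the chaperone Hspa8 read 19327, and the interferon-induced Ifi27 read 19326 and 14907. Ces1d, a carboxylesterase that cleaves triglyceride, read 17695, and the mitochondrial protein Chchd10 read 16360. Below them, the brightest genes in no list were the mitochondrial chaperone Hspa9 (14318), the cysteine dioxygenase Cdo1 (13002), the aldehyde dehydrogenase Aldh2 (12457) and Hibadh (12056), which acts in valine breakdown. Pygl, the liver form of glycogen phosphorylase, read 11386, the metal-binding Mt1 read 10790, and Ech1, which helps oxidise unsaturated fatty acids, read 10532. Itm2b (11199), the ribosomal protein Rps12 (10825) and Grina (10767) completed this set of 10.

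As whole lists, the energy genes were bright. Of 79 respiratory chain and ATP synthase genes with a probe, 74 were detected and 54, or 68.4%, were bright, beside 4.37% of all named genes. Complex I had 32 of 34 detected with a list median of 5642, and complex IV had 15 of 16 with a list median of 11422.5. The median of all named genes was 96. Undetected were Ndufb11 (101) and Ndufs1 (78) of complex I, Uqcrfs1 (99) and Uqcrq (83) of complex III, and the muscle form Cox6a2 (82).

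Substrate supply followed the same order. All 18 genes of the tricarboxylic acid cycle were detected and 12 were bright, among them Idh3g (13247) and the pyruvate dehydrogenase subunit Pdha1 (9730). Of 19 fatty acid oxidation genes 18 were detected and 14 were bright, among them Etfb (12403) and Hadhb (10800). Glycolysis had 10 of 12 detected, led after Gapdh by Ldha (11461), Hk2 (10329) and the pyruvate kinase Pkm (8398, listed under its older symbol Pkm2). Pgk1, a glycolytic enzyme that every cell uses, read 83 and was undetected.

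Synthesis and storage of fat were detected nearly in full. Of 18 synthesis genes 17 were detected and 10 were bright, including the elongase Elovl6 (10542) and the acetyl-CoA synthetase Acss2 (8484 and 107). Fasn, the fatty acid synthase itself, read 718 and lay in the middling band. All 18 genes of lipolysis and the lipid droplet were detected and 9 were bright, among them Bscl2 (10358), the seipin that shapes droplets, and the monoacylglycerol lipase Mgll (3904). Protein synthesis and turnover were also bright: 25 of 36 cytosolic ribosome genes, 12 of 31 mitochondrial ribosome genes (led by Mrps24 at 8028) and 13 of 28 proteasome genes (led by Psma2 at 7339). Such genes serve every cell and mark no tissue.

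**Figure D4:**
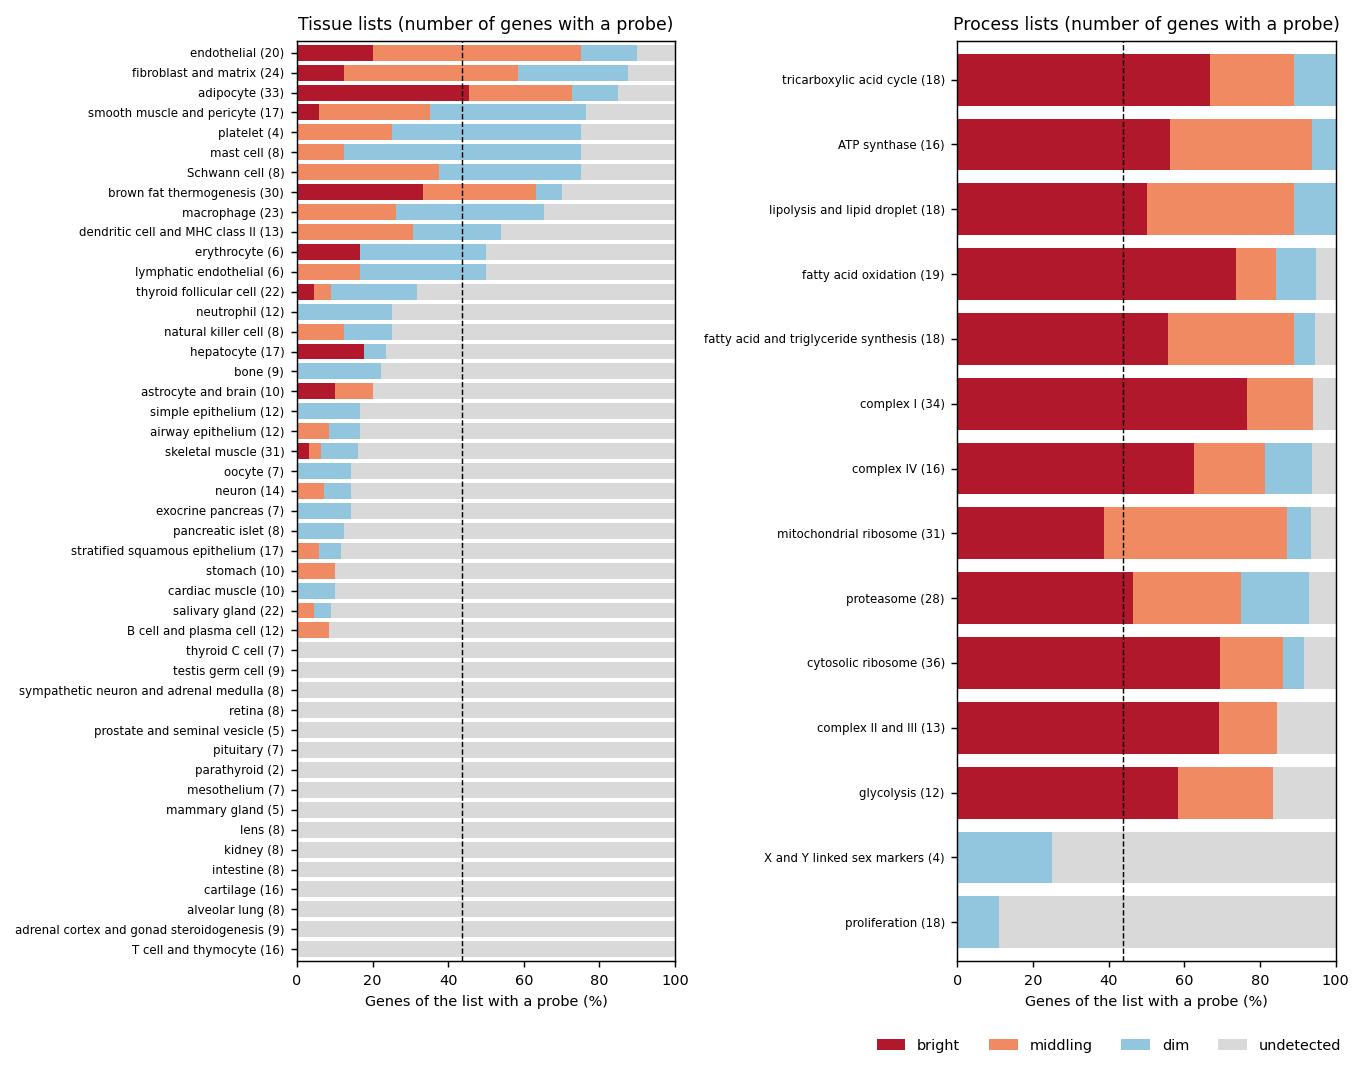
Percent of each list's genes with a probe in the bright, middling, dim and undetected bands of the 0 Gy array, for 46 tissue lists (left) and 14 process lists (right), with the number of genes with a probe in brackets. The dashed line is the 43.7% of all named genes that were detected. Fat, vessel and connective tissue lists and the energy lists extend past it, whereas 16 tissue lists have no detected gene.

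The adipocyte list had 28 of 33 genes detected and 15 bright, the most bright genes of any tissue list. Beyond its defining genes and the enzymes above, the lipogenic regulator Thrsp read 12998, Agpat2 of triglyceride synthesis read 7569, and the droplet coat protein Plin4 read 5549. The adipocyte transcription factors Pparg and Cebpa read 2511 and 358. Lipe, the hormone-sensitive lipase, read 554 on its brighter probe and 104 on the other. Undetected were Fabp4, the fatty acid transporter Cd36 (99), Tusc5 (98), Mest (91) and Lgals12 (81). Probes of Fabp4, Cd36 and Tusc5 were detected on at least 1 of the other arrays of the series, so these 3 probes could give a signal and lay just under the limit here. Singled out after their values were seen, 3 further genes known from adipocytes were bright: Adig at 4343, Mrap at 3960 and Arxes2 at 3591.

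The brown fat list had 21 of 30 genes detected and 10 bright. After Cox8b, Cidea, Cox7a1 and Ucp1 came Fabp3, a fatty acid binding protein of oxidative tissues, at 6081, and the thioesterase Acot11 at 5070. Cpt1b, which admits fatty acids to the mitochondrion, read 4210, Pank1 of coenzyme A synthesis read 4099, and Letmd1 read 3218. Middling genes included the potassium channel Kcnk3 (1055), the fatty acid receptor Ffar4 (1049) and the brown fat transcription factor Ebf2 (420). The developmental markers Zic1 (82) and Lhx8 (86) were undetected, as were Dio2 and Prdm16. Fabp3, Cpt1b, Cox7a1 and Cox8b are also known from heart and skeletal muscle, so they tell brown fat from muscle only beside Ucp1 and Cidea.

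Families with tissue-specific members showed which forms were detected. The uncoupling protein Ucp1 was bright at 8411 and Ucp3, known from muscle and brown fat, was dim at 157. Cox6a1, the form found in most tissues, was bright at 16280 and its heart and muscle counterpart Cox6a2 was undetected at 82. Cox7a1 was bright at 11783 while Cox7a2 was middling at 732, and Cox8a (13261) and Cox8b (15767) were both bright. Among creatine kinases the brain form Ckb was bright at 3479 and the muscle forms Ckm (79) and Ckmt2 (94) were undetected. Muscle forms were thus detected in some families and not in others.

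Fuel-handling families were similarly split. Carnitine palmitoyltransferase was detected as Cpt1b (4210) and not as the liver form Cpt1a (86). Hexokinase was detected as the insulin-responsive Hk2 (10329), with Hk1 just under the limit at 102. Glycogen phosphorylase was detected as Pygl (11386) and the brain form Pygb (566) but not as the muscle form Pygm (82). The insulin-responsive glucose transporter Slc2a4 was middling at 1208, with Slc2a1 (205) and Slc2a5 (119) dim. Acsl5 was bright, Acsl3 middling at 557 and Acsl4 dim at 110. Among desaturases Scd1 was bright and Scd2 middling at 239, and of the elongases Elovl6 and Elovl5 (7379) were bright.

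Regulators of these pathways were dimmer. The nuclear receptor Pparg was bright at 2511, Ppara dim at 215 and Ppard undetected at 83. Of the PGC-1 coactivators, which drive mitochondrial gene expression, Ppargc1b was bright at 1896 and Ppargc1a middling at 549. The estrogen related receptor Esrra, which binds promoters of respiratory genes, was middling at 1285. The thyroid hormone receptors Thra (96) and Thrb (86) and the deiodinases Dio1 (84), Dio2 (83) and Dio3 (87) were all undetected.

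**Figure D5:**
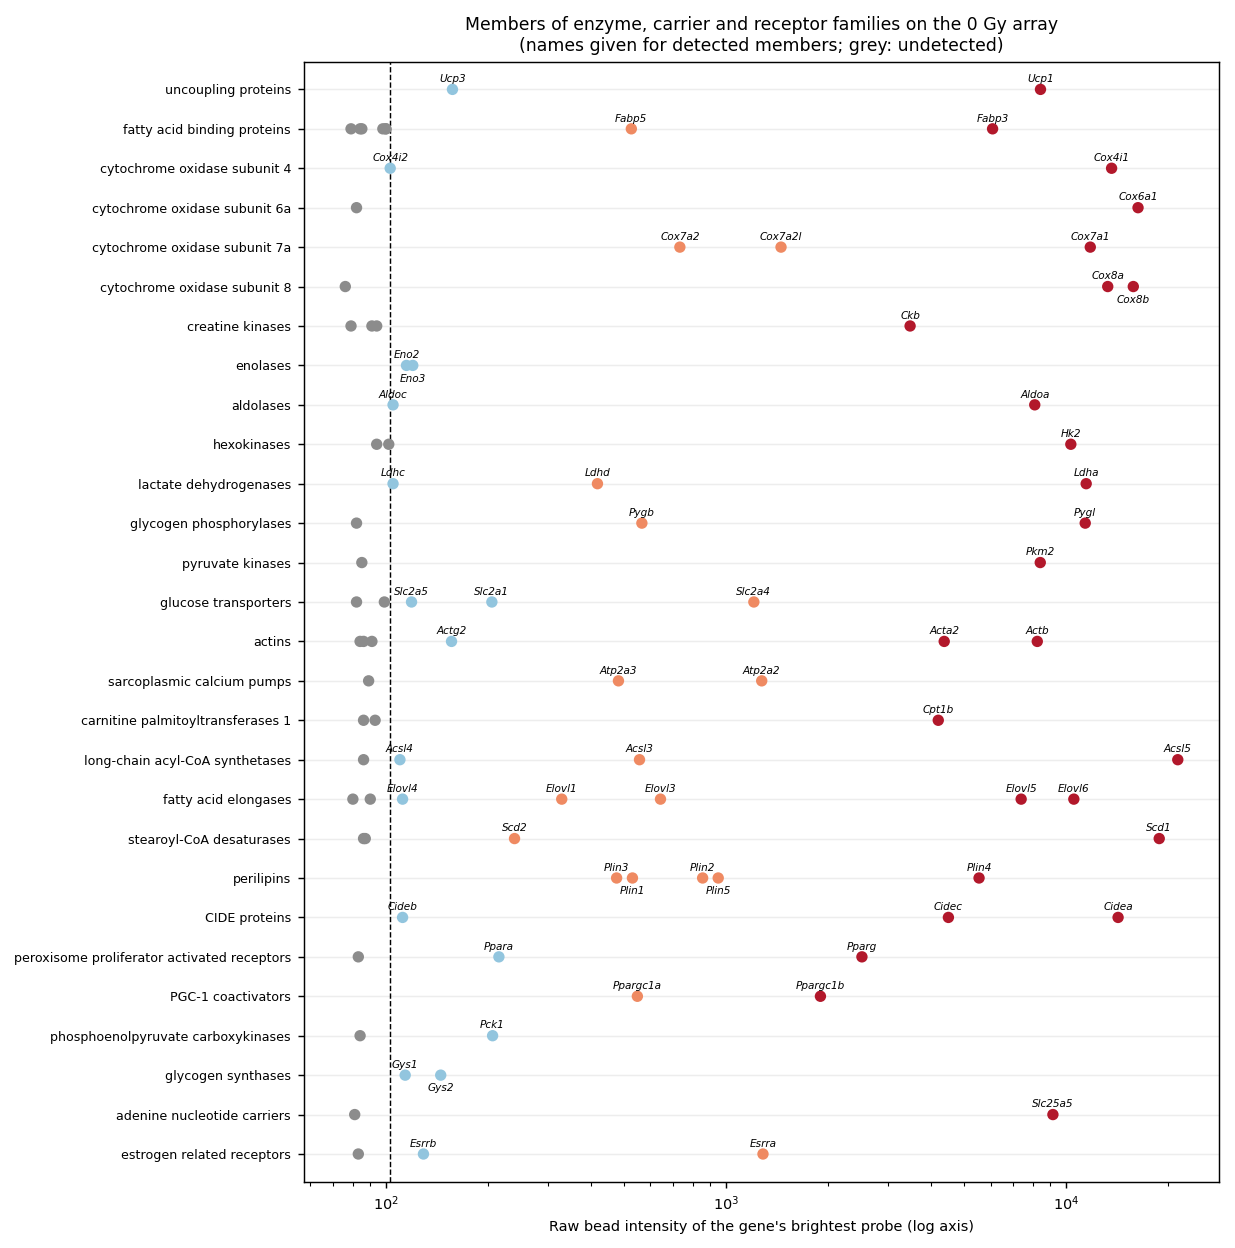
Raw bead intensity of the brightest probe (log axis) for the members of gene families with at least 1 detected member on the 0 Gy array. Points are red for bright, orange for middling, blue for dim and grey for undetected genes, names mark detected members, and the dashed line is the lowest detected intensity, 103. The muscle members Ckm, Cox6a2 and Pygm are among the grey points. Ucp1, Cidea, Cox7a1 and Cox8b are red, and Cox7a1 and Cox8b are also known from heart and skeletal muscle.

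Supporting tissue was detected mostly in the middling and dim bands. By each gene's brightest probe, the endothelial list had the highest share of any tissue list, 18 of 20 genes, of which 4 were bright. These were the water channel Aqp1 (4881), Egfl7 (2920), the VEGF receptor Flt1 (2068) and Rbp7 (2013), a retinol binding protein of fat vessels. Egfl7, Flt1 and Rbp7 each also had an undetected probe, at 98, 84 and 87. With every probe of a gene required to be detected, the endothelial count was 14. The junction protein Pecam1 read 548, Vwf read 437, and Gpihbp1, which holds Lpl on the capillary wall, read 921. Kdr, a further VEGF receptor, was undetected at 91. Of the lymphatic list 3 of 6 genes were detected, or 50%, not far from the 43.7% of all named genes. Pdpn at 313 and Lyve1 at 159 led them, and Prox1 (90), Flt4 (91) and Ccl21a (89) were undetected.

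Of 24 fibroblast and matrix genes 21 were detected and 3 were bright, namely the proteoglycan Dcn (6705), the matrix glycoprotein Sparc (2614) and Ly6c1 (1705). Collagens lay in the middling band and below: Col6a1 read 1145, Col3a1 read 545, Col1a1 read 173, and Col1a2 was undetected at 97. The progenitor markers Pdgfra and Pi16 read 437 and 1029. Smooth muscle and pericyte genes were detected in 13 of 17 cases, led by Acta2 (4383), Des (351), Smtn (344) and Rgs5 (334), with the smooth muscle myosin Myh11 at 211 and Tagln undetected at 93. Nerve sheath genes were detected in 6 of 8 cases, with Pmp22 at 1142, the myelin protein Mbp at 334, Egr2 at 273 and Cnp at 129. Vessel, matrix and nerve sheath transcripts were therefore measurable beside those of fat. With bulk RNA, fewer cells of a type and less RNA in each cell cannot be told apart.

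Macrophage, MHC class II and mast cell lists had detected genes, none of them bright, and lymphocyte lists had hardly any. The macrophage list had 15 of 23 genes detected and none bright, led by Laptm5 (1323), the lysozyme Lyz2 (700) and the complement genes C1qb (338) and C1qc (304). The mannose receptor Mrc1 read 246 and Adgre1, the F4/80 antigen, read 180. Undetected were the signalling adaptors Tyrobp (86) and Fcer1g (85), the receptors Fcgr1 (87) and Ccr2 (82), the integrin Itgam (82) and 3 more. With every probe of a gene required to be detected, the macrophage count was 9. The dendritic cell and MHC class II list had 7 of 13 genes detected, a share of 53.8%, not far from the 43.7% of all named genes. Cd74 (1443), H2-Ab1 (1256), H2-Eb1 (794) and H2-DMa (241) were middling, H2-DMb1 (220) and the class II activator Ciita (104) were dim, and H2-Aa (94) was undetected. The dendritic cell markers Itgax (85) and Flt3 (92) were undetected as well. Of 8 mast cell genes 6 were detected, led by the histamine-forming enzyme Hdc at 421, with the protease Cpa3 at 166. Mcpt4 (126), Cma1 (118) and Tpsb2 (109) lay close to the limit of 103, and Ms4a2 (82) and Fcer1a (87) were undetected.

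Lymphocyte lists were close to empty. None of 16 T cell and thymocyte genes was detected, with Cd3e at 85, Cd4 at 84 and Cd8a at 87. Of 12 B cell and plasma cell genes only Xbp1 (1421), a factor used by many secretory cells, was detected, and Cd79a read 80. Natural killer genes were detected in 2 of 8 cases, Klrd1 at 106 and Prf1 (perforin), whose probes read 957 and 85. Of 12 neutrophil genes 3 were detected, S100a8, Mmp9 and S100a9, all dim at 164, 140 and 123, and the granule genes Elane (100), Ngp (94), Mpo (88) and Camp (86) were undetected. Blood genes were partly detected: alpha globin Hba-a1 read 11299, Hbb-b2 read 208 and Alas2, which starts haem synthesis in red cells, read 232, while the platelet gene Pf4 read 258. Globin genes have near-identical copies whose transcripts a probe may not separate.

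Of the thyroid follicular list as a whole, 7 of 22 genes were detected, a share of 31.8% beside 43.7% of all named genes. The 1 bright member was Ctsb (12265), a lysosomal protease that most cells carry, and Ctsk (259) and Ctsl (119) belong to the same enzyme family. Hhex (162), the chloride channel Ano1 (128) and the carrier Slc16a10 (121) were dim and are also known outside the thyroid. None of the 15 undetected genes was detected on any other array of the series. These probes therefore gave no signal anywhere in the series, and whether they can report their genes was not tested. Calcitonin-producing C cells had 0 of 7 listed genes detected, and the parathyroid genes Pth (83) and Casr (81) were undetected.

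Muscle differed in that respect. Of 31 skeletal muscle genes 5 were detected, namely Myl1 (3566 and 155), myoglobin Mb (259), Tnnt1 (156), Tnnc1 (121) and Eno3 (120). Acta1 (84), Ckm (79), the fast myosin Myh4 (78) and parvalbumin Pvalb (83) were undetected. For 19 of the 26 undetected muscle genes at least 1 probe of the gene was detected on another array. Such a probe could give a signal and was undetected on the 0 Gy array. Cardiac muscle had 1 of 10 genes detected, Myl4 at 206.

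Salivary gland, which borders the thyroid region, had 2 of 22 genes detected, the amylase Amy1 at 875 and the secretoglobin Scgb2b27 at 106. Of its 20 undetected genes, 12 were detected on another array. Amylase genes have near-identical copies, and the pancreatic Amy2a5 read 125 and 77. Airway epithelium had 2 of 12 detected, Cyp2f2 (407) and Foxj1 (108), with the secretoglobin Scgb1a1 undetected at 85. Cartilage, which forms the tracheal rings, had 0 of 16 detected, with Col2a1 at 95 and Acan at 88.

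Distant tissues were mostly undetected. In all, 16 of 46 tissue lists had no detected gene, among them kidney (Umod 96, Kap 90), alveolar lung (Ager 97, Sftpd 94), pituitary (Gh 89, Pomc 83), retina, lens and testis germ cells. Of the 130 distinct genes with a probe in these 16 lists, 12 were detected on another array. Under 25% of genes were detected in 31 of the 46 tissue lists, and over 75% in 4: endothelial, fibroblast and matrix, adipocyte, and smooth muscle and pericyte.

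A few genes were bright or middling in lists that were mostly undetected. The hepatocyte list had 4 of 17 genes detected, with Cyp2e1 at 12227, the major urinary protein Mup2 at 2544 and haptoglobin Hp at 2444, whereas its 8 defining genes, among them Alb (83), Apoa1 (95) and Ttr (78), were undetected. Fat is known to express Cyp2e1 and Hp as well. Major urinary proteins form a family of near-identical copies, and the other Mup2 probe read 196. In the brain list 2 of 10 genes were detected, the glutamate transporter Slc1a3 (bright at 2744) and Olig1 (middling at 775), with Gfap (85) and Mog (84) undetected. Atp4b, a subunit of the gastric proton pump, was middling at 399, whereas its partner Atp4a read 83.

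The middle and the lower end of the order were also read off. The probes at the median rank of the detected, all at 212, belonged to Atp6v1g1 (a proton pump subunit), Commd5, Cryl1, Fam216a, Gm10052 and Gpn3, and 212 lies in the dim band of genes. At the threshold, 152 named probes read 103 with a detection p of 0.00881, among them 2610044O15Rik8, 2810021J22Rik and 3110082I17Rik. A further 180 read 102 with a detection p of 0.0151, among them 1110017D15Rik, 1700123K08Rik and Abhd16a. A single unit of intensity thus separated the dimmest detected from the brightest undetected probes. Of the detected named probes, 8976 had a detection p of 0.

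Promoter sequence differed between detected and undetected genes as a description. In RefSeq promoter windows (GRCm38.p6, 250 bases before the start), the median number of CpG dinucleotides was 15 for bright, 16 for middling and 15 for dim genes. It was 6 for undetected genes, and 8 when olfactory and vomeronasal receptors were left out. The medians of the 3 detected bands thus lay within 1 CpG of each other and above that of undetected genes. Within the groups the medians were 14 for respiratory chain and ATP synthase, 15 for cytosolic ribosome, 6 for adipocyte and 9 for brown fat genes.

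Motifs were searched on both strands. The ETS motif CCGGAAG was in 36.1% of 36 windows of cytosolic ribosome genes and 16.9% of 71 windows of respiratory chain and ATP synthase genes, beside 9.48% of windows of all named genes. The NRF1 motif GCATGCGC, known from promoters of respiratory genes, was in 11.3% of respiratory windows, 0 of the ribosomal windows and 3.19% of all. The TATA box TATAAA was in 8.31% of bright, 5.75% of middling and 6.72% of dim windows. Its share was 14.8% in undetected windows (11.7% without olfactory and vomeronasal receptors) and 10.9% in all. The ERR motif TCAAGGTCA, to which Esrra binds, was in 1 of the 71 respiratory windows and 0.284% of all. No factor's binding was measured, and a match is a description of letters only.

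The windows below show the NRF1 and ERR motifs in the brightest respiratory gene, and the ETS motif in the brightest ribosomal gene, that held it in its only window. No window was chosen for the TATA box, whose share was 8.45% in respiratory and 2.78% in ribosomal windows. Ucp1 is shown for comparison, and each window runs 5′ to 3′ on the gene's strand with motif matches in capitals. Cox6a1 (chr5:115348959-115349208, minus strand) holds an NRF1 match on each strand, overlapping each other, at positions -160 and -162 from the start, and an ETS match at -16. Atp5g3 (chr2:73911327-73911576, minus strand) holds the ERR motif at -52 and Rpl41 (chr10:128549169-128549418, minus strand) the ETS motif at -56. Ucp1 (chr8:83290098-83290347, plus strand) holds none of the 4 motifs in this window.
Cox6a1: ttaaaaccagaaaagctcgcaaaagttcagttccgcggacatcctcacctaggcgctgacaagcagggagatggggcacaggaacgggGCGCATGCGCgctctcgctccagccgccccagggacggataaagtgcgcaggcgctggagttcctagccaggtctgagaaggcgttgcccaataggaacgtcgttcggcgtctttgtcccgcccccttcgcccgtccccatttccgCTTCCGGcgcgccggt
Atp5g3: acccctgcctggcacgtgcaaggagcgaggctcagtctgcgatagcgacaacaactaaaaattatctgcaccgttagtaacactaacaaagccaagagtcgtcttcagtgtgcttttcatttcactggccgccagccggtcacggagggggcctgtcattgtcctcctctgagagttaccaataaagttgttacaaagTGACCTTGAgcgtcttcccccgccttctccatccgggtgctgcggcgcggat
Rpl41: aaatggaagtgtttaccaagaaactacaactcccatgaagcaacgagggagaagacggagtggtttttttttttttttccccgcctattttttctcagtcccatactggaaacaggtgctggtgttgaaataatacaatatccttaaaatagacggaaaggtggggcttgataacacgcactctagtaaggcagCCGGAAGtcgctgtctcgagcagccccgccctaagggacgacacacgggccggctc
Ucp1: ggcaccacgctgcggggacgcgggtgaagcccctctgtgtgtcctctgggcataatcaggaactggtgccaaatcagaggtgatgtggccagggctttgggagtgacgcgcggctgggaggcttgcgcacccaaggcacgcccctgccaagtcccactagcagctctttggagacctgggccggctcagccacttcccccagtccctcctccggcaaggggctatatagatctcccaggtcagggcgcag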

How the data were processed

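The deposited non-normalized table gave, for each of 26512 probes, a mean bead intensity on the linear scale and, per the file headers, a detection p-value for each array. The lowest intensity on the 0 Gy array was 69 and undetected probes had a median of 86, so a background stays in every value. The p-values fell in steps of 0.00126, from which about 795 negative control bead types were inferred. Scanner software, bead counts and any background correction were not given in the sources used here. Having 1 array limits the precision of every value. The deposited normalized table held intensity values that were inferred to be quantile-normalized by the authors and served only as an alternative ranking.

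Of the 25697 probes in the deposited value table, 23978 had 1 gene symbol in the platform annotation, 0 had several and 1719 had none. The 815 probes outside it have no name here, and 19 of them were detected. Of the named genes, 16582 of 16593 had an Entrez identifier in RefSeq's mouse table. Its build, GRCm38.p6, served for names and promoter windows only, and 13334 had a promoter window. Members and all 60 gene lists (46 tissue, 14 process, 947 entries) were chosen with earlier results of these data known. Of the entries, 838 matched by symbol and 6 by synonym, 2 repeated a gene, and 101 were not analysed here. "Defining" genes are those chosen as most restricted to the tissue, although Cox7a1 and Cox8b are also known from heart and skeletal muscle.

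Named genes are the 40 brightest named probes, the defining markers of 4 lists, up to 4 leading members of the other lists (or up to 3 defining markers where none was detected), described families, genes at the median and the threshold, split genes, bright members of sparse lists and the 10 brightest unlisted genes. Some further members are named for their role, chosen after their values were seen, as were Eef1a1, Actg1, Adig, Mrap and Arxes2. Counting and ranking used pandas 2.3.3 and numpy 2.4.6 in Python 3.11.15, figures used matplotlib 3.10.9, and the counting was tested on simulated data. Alternatives were detection p under 0.05 or 0.001, other rules for a gene's probe, symbol-only matching, the authors' normalized ranking and wider or narrower bright bands.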

Additional observations from a re-analysis of the deposited data

Results flagged for a closer look

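Outside the named probes, a signal appeared in data that the report does not use. Of the 1719 probes of the value table with no gene symbol, 566, or 32.9%, were detected on the 0 Gy array, and the highest read 27710. Their transcripts are unnamed here.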

How the results depend on the processing

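Results from 1 array carry no replicate error, and intensities set no order of mRNA amounts. With detection p under 0.05, 8179 named genes were detected, and with p under 0.001, 6961, beside 7252. Requiring every probe of a gene to be detected left 5486, of which 548 were bright. Under these 3 alternatives the counts for thyroid follicular genes stayed at 7, those for brown fat at 20 to 21, for adipocyte genes at 28 to 31 and for skeletal muscle at 4 to 7. Of 56 other list counts, 12 moved by over 1.5 times at p under 0.05, 2 at p under 0.001 and 4 when every probe was required. At p under 0.05 T cell, C cell and cartilage lists each had 1 gene detected, and the macrophage list fell to 9 when every probe was required. These moves follow from the wider or narrower calls. Narrowing and widening the bright band changed it to 362 and 1450 genes by construction. Ranking by the authors' normalized values gave a bright band of 725 genes, all shared. Quantile normalization, which was inferred for these values, keeps the order within 1 array. Such an overlap is then fixed in advance and checks nothing. Of the 548 bright genes with every probe detected, 506 were shared. Matching by symbol alone, and representing a gene by its highest mean probe over the arrays, moved none of the 56. Probes outside the value table have no name, so adding them changed no count. No paired analysis was possible because each dose has 1 array.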

Other observations

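Few proliferation genes were detected: 2 of 18 with a probe, or 11.1%, beside 43.7% of all named genes. These were the thymidylate synthase Tyms at 159 and the replication helicase subunit Mcm5 at 108. Of the 16 undetected genes, 3 were detected on another array, and whether the other probes can report their genes was not tested. Top2a (91), Cdk1 (89) and Pcna (87) were undetected. The X-inactivation transcript Xist was detected at 160 and 153 on its 2 probes, and the Y-linked genes Uty (95), Kdm5d (84) and Eif2s3y (80) were undetected. Of these 3 Y-linked genes, 1 was detected on another array, and whether probes of the others can report their genes was not tested. The sex of the animals is not stated in the sources used.

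Among gene families taken by symbol, mitochondrial carriers had 28 of 39 genes detected, or 71.8%, beside 43.7% of all named genes. The adenine nucleotide carrier Slc25a5 read 9149. Cytochrome P450 genes had 15 of 75 detected, or 20%, and Cyp2e1 was the 1 bright member. Keratins, the filaments of epithelial cells, had 4 of 47 detected, or 8.51%, and none bright, led by Krt10 at 314. Beta-defensins had 2 of 41 detected, or 4.88%.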
